A study of Homo sapiens with 6 samples.

Results

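Histone-modifying enzymes were examined in CL1-5 cells against CL1-0 cells. The members were the array's probe sets with exactly 1 gene symbol from the families of histone deacetylases, sirtuins, lysine acetyltransferases, lysine demethylases, lysine methyltransferases and arginine methyltransferases, without KDM5C, KDM5D and KDM6A. The choice went by symbol and used no measured value. It gave 216 of 54675 probe sets, which stand for 74 of 19775 named genes. A filter on dim signal, which asked for a value above the array's 40th percentile on 3 or more of the 6 arrays, kept 183 of the 216 probe sets and left 33 out, and all 74 genes kept at least 1.

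Both lines are human lung adenocarcinoma lines derived from the parental line CL1, and neither carries a labelled allele or agent. CL1-5 is labelled highly invasive and CL1-0 poorly invasive. Both grew in RPMI medium with fetal bovine serum and penicillin and streptomycin. Each line gave 3 repeats, called biological in the labels, and their total RNA went on 6 arrays, 1 an array. Each degree of invasiveness is thus represented by 1 line.

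Enzymes of these families write and erase chemical groups on the tails of histones, the proteins that DNA is wound around. Acetyl groups, added by acetyltransferases and removed by deacetylases and sirtuins, mark open and transcribed chromatin. Methyl groups act by position: methylation of histone H3 at lysine K4 marks promoters and enhancers, at K36 transcribed gene bodies, and at K9 and K27 repressed chromatin. Many members also modify proteins other than histones, and transcript levels do not measure enzyme activity.

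The median signal of an array was 30.2 to 30.9 units. Across genes, Pearson correlations reached 0.989 to 0.996 for arrays of the same line, against 0.856 to 0.866 for arrays of different lines. Repeat 3 differed from the other repeats in both lines. There the ratio of 3′ over 5′ signal of ACTB, by which RNA degradation is judged, was 0.91 in CL1-5 and 1.17 in CL1-0 on the log2 scale, against 0.31 and 0.40 in the other CL1-5 repeats and 0.53 and 0.44 in the other CL1-0 repeats. Between the lines the ratio averaged 0.54 ± 0.32 in CL1-5 and 0.71 ± 0.40 in CL1-0 (SD, n = 3 each). The p of an exact permutation test (two-sided) was 0.5, where 3 against 3 arrays cannot go below 0.1. That test did not use the repeat numbers. Each repeat of CL1-5 had a lower ACTB ratio than the same repeat of CL1-0. The same held for GAPDH, with 0.040, 0.016 and 0.197 in CL1-5 repeats 1 to 3, against 0.076, 0.144 and 0.252 in CL1-0. The part of these lower ratios in the results below was not tested. Of the epithelial markers, KRT18 (log2 fold change 6.31) and KRT8 (3.32) were higher in CL1-5. EPCAM averaged 10.3 ± 0.85 in CL1-5, where it was under the 40th percentile of every array, and 29.3 ± 3.1 in CL1-0. It was at least 1.35-fold lower in CL1-5. CDH1 (-0.21, every CL1-5 array below every CL1-0 array), KRT7 (0.17) and MUC1 (0.02) did not pass the test. KRT19 did not exceed the 40th percentile on any array. The lung markers NAPSA (38.4 in CL1-5, 47.9 in CL1-0), SFTPB (38.0 in CL1-5, 36.5 in CL1-0), NKX2-1 and SFTPC did not pass the test, and SFTPD did not exceed that percentile on any array. Among leukocyte, endothelial and fibroblast markers, PTPRC, LYZ, CD14, CDH5, LUM and PDGFRA did not exceed it on any array. PDGFRB exceeded it on 2 arrays. CD3E, the only leukocyte marker tested, was dim but above it on every array (23.7 in CL1-5, 24.6 in CL1-0) and did not pass the test. Of 3 tested endothelial markers CLDN5 (1.59) and PECAM1 (1.11) were higher in CL1-5, of 4 fibroblast and smooth muscle markers ACTA2 (0.77) was higher, and of 3 neuroendocrine markers CHGA (-0.44) was lower. Their part in the results below was not tested. Fewer expressing cells and less RNA per cell cannot be told apart in such bulk RNA.

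Among the 74 member genes 11 were higher and 27 lower in CL1-5 at an adjusted p under 0.05 (limma, Benjamini-Hochberg over all genes tested), and 36 did not pass. Fold changes are of signal plus a constant of 6.85, each gene read through its brightest passing probe set. The number higher was 6 without CL1-0 repeat 2 and 7 without CL1-5 repeat 3. The 38 called genes are 51.4% of the members, and 51.6% of all 14828 genes tested were called, so the share of members that differed was near the background. By direction, 23.3% of all genes were called higher and 28.3% lower. Counts by group below stand beside these shares. Among groups of 7 or more genes, 42.9% of sirtuins, 28.6% of lysine acetyltransferases and 53.8% of Jumonji demethylases were called. For K4 methyltransferases and arginine methyltransferases the share was 37.5% each. The median log2 fold change (CL1-5 over CL1-0) was -0.17 over the members and -0.03 over all genes tested. The arrays of the lines did not overlap for 44 members, where 58.8% of all genes did not overlap. Of 10 members called at 2-fold or more, all were lower in CL1-5 and the largest increase on the probe sets that stand for the genes, that of KDM4B, was 1.90-fold. With the mean over all passing probe sets of a gene, KDM4B had a log2 fold change of 0.50, below the 0.70 of SETD6. By such means HDAC2, KMT2D, KDM7A, KDM5B, KAT6A and SETD5, among the 10, were lower by less than 2-fold. Over all genes 16.1% were called at 2-fold or more, 8.51% higher and 7.6% lower.

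Arrays with the same repeat number deviated together and were taken as pairs. In a fit blocked by repeat number, 20 members were higher and 36 lower, where 62.7% of all genes were called. The block added 18 calls and lost none. The 9 added higher were EHMT1, EHMT2, HDAC10, HDAC11, KAT5, KMT5B, NSD1, PRMT6 and SETD1B, and the 9 added lower were HDAC8, KDM1B, KDM5A, KMT2A, KMT2E, PRMT1, SIRT2, SIRT6 and SUV39H1. The values below are those of the fit without the block, which does not use the pairs. Genes said below not to pass did not pass in that fit, and the 18 named here passed with the block.

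**Figure D1:**
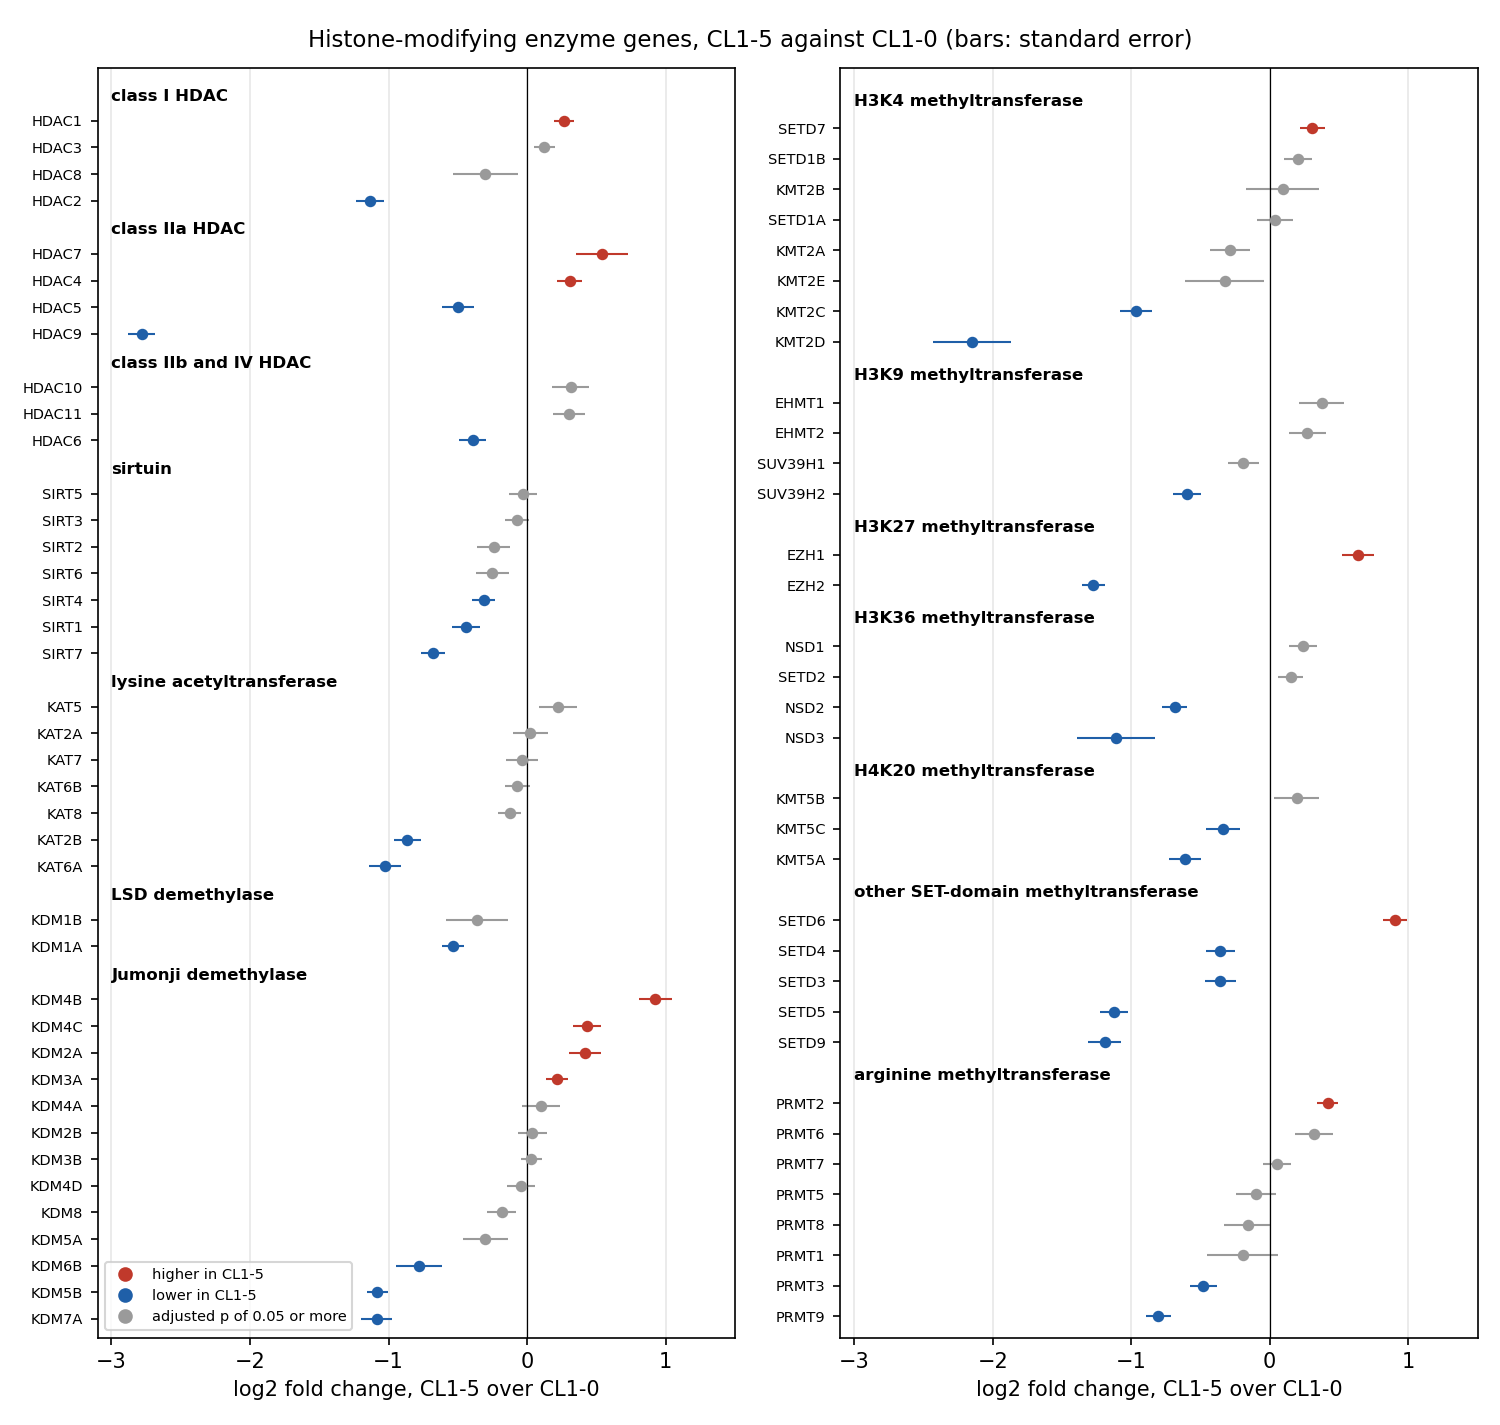
Log2 fold change of CL1-5 over CL1-0 (x axis) for the 74 member genes, grouped by role, with standard errors as bars. Red points (11) were higher and blue points (27) lower at an adjusted p under 0.05, and the 36 grey points did not pass. HDAC9 at -2.78 and KMT2D at -2.15 lie farthest from 0.

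Of the class I deacetylases, the nuclear catalytic subunits of corepressor complexes, HDAC2 was lower and HDAC1 higher in CL1-5. HDAC2 read 729, 794 and 704 signal units in CL1-5 repeats 1 to 3, against 1647, 1455 and 1827 in CL1-0. Every CL1-5 array lay below every CL1-0 array. The log2 fold change was -1.13 (SE 0.10, adjusted p = 1.67e-05). HDAC1, the closest relative of HDAC2 and its partner in the same complexes, read 1806, 1730 and 1934 in CL1-5, against 1561, 1508 and 1471 in CL1-0. The lines did not overlap here either, with CL1-5 on top, but the change was small (0.27, SE 0.07, adjusted p = 0.0136), and without CL1-0 repeat 2 its adjusted p was 0.0502 with the filter on 2 arrays. HDAC3, which works in a corepressor complex of its own, had a log2 fold change of 0.12, and HDAC8, which also acts on cohesin, one of -0.30, and neither passed.

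Class IIa deacetylases are signal-regulated proteins that shuttle between nucleus and cytoplasm and bind MEF2 transcription factors. All 4 differed, 2 in each direction, where 51.6% of all genes were called. HDAC9 had the largest change of any member. It read 85.1, 97.7 and 80.9 in CL1-5, against 632, 634 and 662 in CL1-0. The arrays of each line were close together and the lines far apart, and the log2 fold change was -2.78 (SE 0.10, adjusted p = 4.62e-08), a 6.87-fold lower signal. HDAC5 averaged 208 ± 21 in CL1-5 and 296 ± 29 in CL1-0 (log2 fold change -0.50, adjusted p = 0.00547). HDAC4 and HDAC7 were higher, by 0.31 and 0.54, but with little room: HDAC4 lost its call without any of 3 arrays (CL1-5 repeat 2, CL1-5 repeat 3 or CL1-0 repeat 2; adjusted p 0.0514 to 0.0826) and with the mean of its 3 probe sets (log2 fold change 0.18, adjusted p = 0.0782), and HDAC7 without any of 4 (repeat 2 or 3 of either line; 0.0555 to 0.137), with a log2 fold change of 0.34 without CL1-5 repeat 3.

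The remaining zinc-dependent deacetylases gave 1 call. HDAC6, the cytoplasmic tubulin deacetylase, read 313, 325 and 359 in CL1-5, against 400, 464 and 452 in CL1-0 on the probe set that stands for the gene. On that probe set the lines did not overlap (log2 fold change -0.39, adjusted p = 0.00848). A dimmer probe set of HDAC6 went the other way. It read 33.17, 26.29 and 25.02 in CL1-5, against 13.27, 16.47 and 10.33 in CL1-0. All 3 CL1-0 values were under the 40th percentile of their array, so it passed the filter only through CL1-5, where it is high. It was called higher (adjusted p = 0.00216 in the fit over probe sets), but that call is no separate support for a rise. The remaining probe set was not called. The mean over the gene's probe sets, the dimmer one included, gave 0.09 with an adjusted p of 0.508. The lower value of HDAC6 thus rests on the probe set that stands for it. HDAC10, a polyamine deacetylase, and HDAC11, the sole class IV enzyme, had log2 fold changes of 0.31 and 0.30 and did not pass.

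Of the 7 sirtuins, deacylases that need NAD, 3 were lower and 4 did not pass. All 7 log2 fold changes were under 0, where the median over all genes tested was -0.03. Those of SIRT3 (-0.07, SE 0.09) and SIRT5 (-0.03, SE 0.10) were smaller in size than their standard errors. For SIRT5 the sign depended on single arrays, with 0.03 without CL1-0 repeat 1 or without CL1-5 repeat 3. SIRT7, a mainly nucleolar sirtuin that removes acetyl groups from histone H3, read 266, 279 and 248 in CL1-5, against 433, 433 and 414 in CL1-0. All CL1-5 values were below all CL1-0 values (log2 fold change -0.68, SE 0.09, adjusted p = 0.000175). SIRT1, a nuclear sirtuin that also acts on transcription factors, averaged 301 ± 18 in CL1-5 and 412 ± 44 in CL1-0 and fell by 0.44 on the log2 scale. SIRT4, a mitochondrial sirtuin, was dim at 21.6 ± 0.84 in CL1-5 and 28.5 ± 0.54 in CL1-0, and its call (-0.31) was lost without CL1-5 repeat 2 and with the filter on 2 arrays (adjusted p = 0.0541). SIRT2, SIRT3, SIRT5 and SIRT6 had log2 fold changes between -0.25 and -0.03. The passing probe sets of SIRT5 lay between -0.18 and 0.24.

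Of 7 lysine acetyltransferases 2 were lower and 5 did not pass. KAT6A, the MOZ acetyltransferase of histone H3, read 440, 435 and 536 in CL1-5, against 878, 920 and 1097 in CL1-0. The lines did not overlap, and repeat 3 was the highest in each (log2 fold change -1.03, SE 0.12, adjusted p = 9.29e-05). Its paralog KAT6B averaged 495 ± 28 in CL1-5 and 520 ± 31 in CL1-0 with overlapping arrays. KAT2B, the PCAF acetyltransferase, read 189, 178 and 161 in CL1-5, against 353, 313 and 311 in CL1-0 (log2 fold change -0.86, adjusted p = 0.000103). Its paralog KAT2A, the catalytic subunit of the SAGA complex, had a log2 fold change of 0.02 and overlapping arrays. KAT5, KAT7 and KAT8, the enzymes of the TIP60, HBO1 and MOF complexes, lay between -0.12 and 0.22 and did not pass.

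Of the 2 flavin-dependent lysine demethylases 1 was lower. KDM1A, also called LSD1, removes methyl groups from histone H3 lysine K4 within the CoREST complex. It read 446, 457 and 427 in CL1-5, against 667, 654 and 619 in CL1-0, with no overlap (log2 fold change -0.54, SE 0.08, adjusted p = 0.00044). KDM1B, its paralog, had -0.36 with overlapping arrays and did not pass.

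Of 13 Jumonji demethylases, which need iron and oxoglutarate, 4 were higher, 3 lower and 6 not called. The lower ones act on different marks. KDM7A, an eraser of K9 and K27 methylation, read 138, 135 and 113 in CL1-5, against 308, 272 and 262 in CL1-0 (log2 fold change -1.09, SE 0.11, adjusted p = 4.74e-05). A second probe set of KDM7A was not called, with 136, 142 and 155 in CL1-5 and 149, 132 and 133 in CL1-0. KDM5B, an eraser of K4 methylation, read 409, 408 and 423 in CL1-5, against 905, 882 and 858 in CL1-0. Within each line the arrays were close together, and the log2 fold change was -1.08 (SE 0.07, adjusted p = 3.73e-06). KDM6B, an eraser of K27 methylation, read 179, 190 and 235 in CL1-5, against 280, 348 and 433 in CL1-0 (log2 fold change -0.78, adjusted p = 0.00371), and all 5 of its probe sets were lower, with log2 fold changes between -1.57 and -0.78.

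The higher Jumonji enzymes were KDM4B, KDM4C, KDM2A and KDM3A. KDM4B, an eraser of K9 methylation, read 304, 365 and 389 in CL1-5, against 166, 181 and 200 in CL1-0. The lines did not overlap (log2 fold change 0.93, SE 0.12, adjusted p = 0.000197), while 4 of its 6 passing probe sets were not called, with log2 fold changes between -0.04 and 1.13. KDM4C, which acts on the same mark, averaged 109 ± 6.35 in CL1-5 and 79.4 ± 7.2 in CL1-0 (log2 fold change 0.43, adjusted p = 0.00707). The paralogs KDM4A and KDM4D had 0.10 and -0.05 with overlapping arrays. KDM2A, an eraser of K36 methylation that binds unmethylated CpG islands, was higher by 0.42 and lost its call without CL1-0 repeat 2 (adjusted p 0.0566). KDM3A, an eraser of K9 methylation induced by hypoxia, was higher by 0.22 (adjusted p = 0.0421), and leaving out any array but CL1-0 repeat 3 ended that call (adjusted p 0.0555 to 0.131).

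Among 8 methyltransferases of histone H3 lysine K4, 1 was higher and 2 were lower. KMT2D, which with KMT2C lays down the monomethyl mark of enhancers, read 93.3, 127 and 201 in CL1-5, against 489, 559 and 864 in CL1-0. Within each line repeat 3 was the highest, yet the highest CL1-5 value was less than the lowest CL1-0 value (log2 fold change -2.15, SE 0.28, adjusted p = 0.000208). KMT2C read 323, 313 and 339 in CL1-5, against 642, 549 and 743 in CL1-0 (log2 fold change -0.96, SE 0.12, adjusted p = 0.000126). KMT2A and KMT2B, the MLL1-type enzymes of developmental promoters, had -0.28 and 0.09 (log2 fold change). The promoter-wide enzymes SETD1A and SETD1B had 0.04 and 0.20, KMT2E, reported to lack catalytic activity, had -0.33, and none of these 5 passed. SETD7, a monomethyltransferase with many targets other than histones, was higher by 0.31 and lost its call without CL1-5 repeat 1, CL1-5 repeat 3 or CL1-0 repeat 2 (adjusted p 0.055 to 0.0699).

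**Figure D2:**
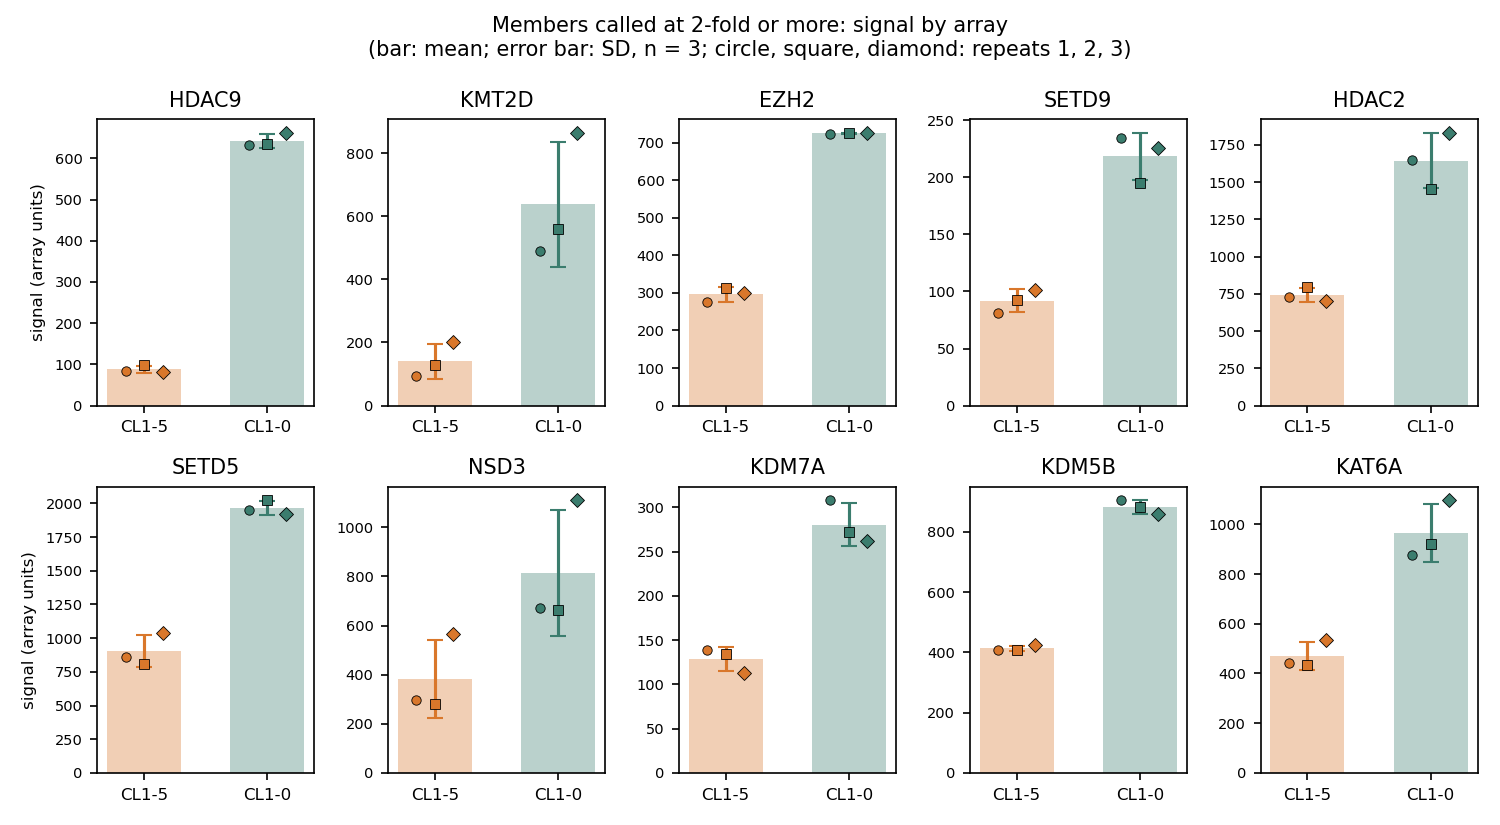
Signal in array units (y axis, from 0) of the 10 members called at 2-fold or more, with CL1-5 in orange and CL1-0 in green. Bars are means, error bars SDs over 3 arrays, and the circle, square and diamond are repeats 1, 2 and 3. In all 10 genes the 3 CL1-5 arrays lie below the 3 CL1-0 arrays, and in KMT2D, NSD3 and KAT6A repeat 3 is the highest of both lines.

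Of 4 methyltransferases of K9, a mark of repressed chromatin, 1 was lower and 3 did not pass. SUV39H2, which trimethylates K9 in heterochromatin, read 297, 264 and 264 in CL1-5, against 456, 377 and 427 in CL1-0 (log2 fold change -0.60, SE 0.10, adjusted p = 0.00108). Its paralog SUV39H1 had -0.19 and overlapping arrays. EHMT1 and EHMT2, which work as a dimer on K9 in euchromatin, had 0.37 and 0.27 and did not pass.

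EZH2 and EZH1 are the alternative catalytic subunits of Polycomb repressive complex PRC2, which methylates K27, EZH2 being typical of dividing cells and EZH1 of resting ones. EZH2 read 275, 314 and 300 in CL1-5, against 723, 725 and 725 in CL1-0. The CL1-0 arrays were almost equal, and every CL1-5 array lay well below them. The log2 fold change was -1.27 (SE 0.08, adjusted p = 2.74e-06). EZH1 read 325, 364 and 412 in CL1-5, against 219, 221 and 260 in CL1-0. Here CL1-5 was on top without overlap (log2 fold change 0.64, SE 0.12, adjusted p = 0.00162), and 3 of its 4 passing probe sets were called higher. EZH2 rests on 1 probe set.

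The promoters of this opposed pair are shown with that of KDM4B, the largest increase to set their sequence motifs side by side. Each is the 250 bases before an annotated start from RefSeq (GRCh38.p14), 5′ to 3′ on the gene's strand, with the CCAAT box (CCAAT) and the GC box (GGGCGG) of either strand in capitals. Boxes of one or both kinds can overlap. The EZH2 window is chr7:148884292-148884541 on the minus strand (the first of 2 starts listed), that of EZH1 chr17:42745041-42745290 on the minus strand, and that of KDM4B chr19:4968863-4969112 on the plus strand.
EZH2: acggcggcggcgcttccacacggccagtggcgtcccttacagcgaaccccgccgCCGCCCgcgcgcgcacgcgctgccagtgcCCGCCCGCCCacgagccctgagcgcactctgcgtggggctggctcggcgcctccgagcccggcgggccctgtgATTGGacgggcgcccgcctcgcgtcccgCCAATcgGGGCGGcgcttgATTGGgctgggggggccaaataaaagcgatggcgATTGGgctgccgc
EZH1: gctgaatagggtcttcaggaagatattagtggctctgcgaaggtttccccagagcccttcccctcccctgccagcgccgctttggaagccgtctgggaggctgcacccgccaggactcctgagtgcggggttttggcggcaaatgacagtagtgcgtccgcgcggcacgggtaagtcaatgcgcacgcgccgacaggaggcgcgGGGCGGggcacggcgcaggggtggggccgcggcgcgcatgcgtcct
KDM4B: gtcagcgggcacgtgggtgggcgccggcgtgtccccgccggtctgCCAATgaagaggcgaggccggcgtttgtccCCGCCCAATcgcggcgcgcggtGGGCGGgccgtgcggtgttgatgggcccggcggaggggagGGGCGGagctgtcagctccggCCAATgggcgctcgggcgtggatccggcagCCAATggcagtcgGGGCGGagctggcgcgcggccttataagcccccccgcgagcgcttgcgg

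The EZH2 window held 4 CCAAT boxes and 4 GC boxes, and the EZH1 window 1 GC box and no CCAAT box. The KDM4B window held 4 of each, the same counts as EZH2. A relation between these boxes and the direction of change was not tested. Of the 74 members 68 had a window in the table. With the first listed window of each gene, 19 of 23 lower members held a GC box (82.6%), against 6 of 11 higher members (54.5%), 21 of 34 not called (61.8%) and 42.3% of 27305 genes. A CCAAT box was found in 8 of 23 lower members (34.8%), 4 of 11 higher members (36.4%), 10 of 34 not called (29.4%) and 33% of genes. The E-box CACGTG was held by 9 members (13.2%), against 6.49% of genes, and the ETS motif CCGGAAG by 12 (17.6%), against 8.82%. These are letter matches on either strand in windows of 1 length, and say nothing of binding.

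**Figure D3:**
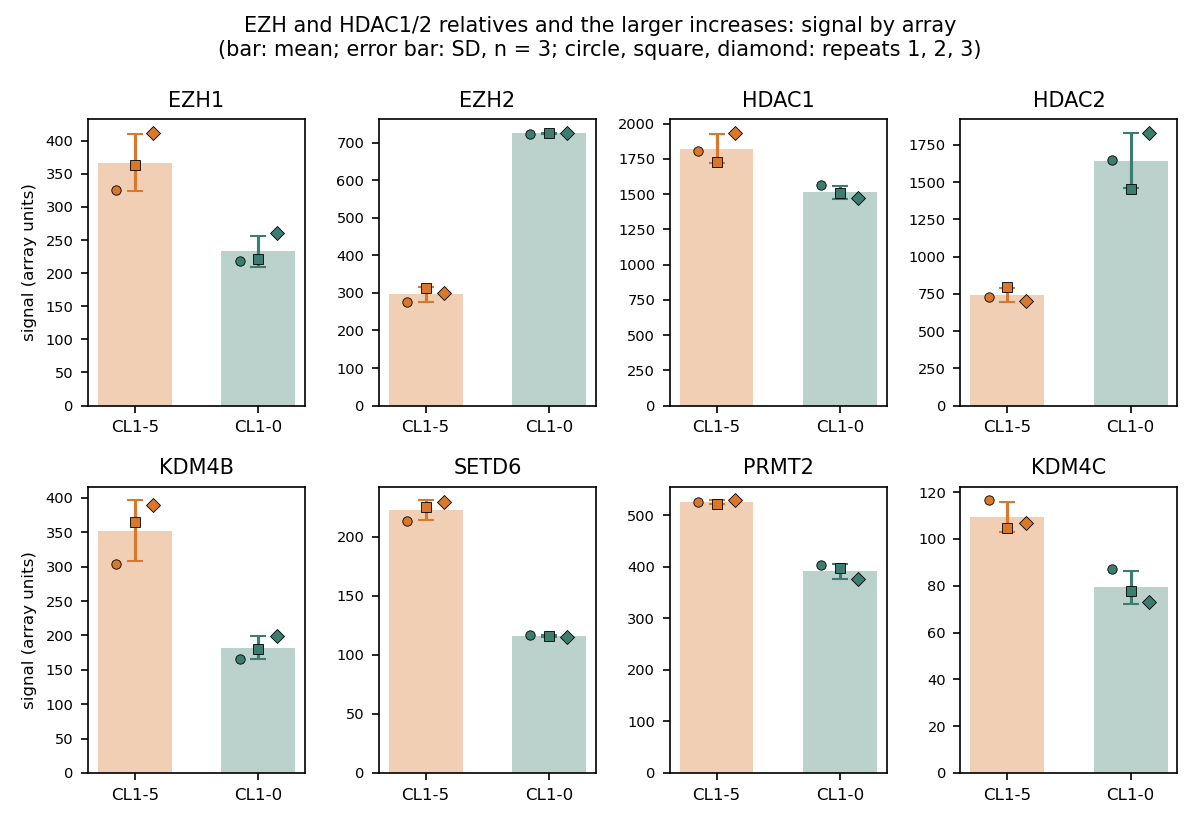
Signal in array units (y axis, from 0) of 8 members, with CL1-5 in orange and CL1-0 in green. Bars are means, error bars SDs over 3 arrays, and the circle, square and diamond are repeats 1, 2 and 3. EZH1 and HDAC1 are higher in CL1-5 where their relatives EZH2 and HDAC2 are lower, and KDM4B, SETD6, PRMT2 and KDM4C are higher without overlap.

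Of the 4 methyltransferases of K36, NSD2 and NSD3 were lower. NSD3 read 299, 281 and 564 in CL1-5, against 670, 661 and 1110 in CL1-0. The lines did not overlap, but repeat 3 stood well above repeats 1 and 2 in each, and the standard error was wide (log2 fold change -1.11, SE 0.28, adjusted p = 0.00961). Another probe set of NSD3 varied less, with 123, 132 and 123 in CL1-5 and 460, 432 and 480 in CL1-0, and fell by 1.81 on the log2 scale. Of the 6 passing probe sets of NSD3, 5 were called lower. NSD2, the dimethylase often over-expressed in myeloma, averaged 390 ± 32 in CL1-5 and 631 ± 23 in CL1-0 (log2 fold change -0.69, adjusted p = 0.000213), with 5 of 6 probe sets lower. NSD1 and SETD2, the trimethylase of transcribed genes, had 0.24 and 0.15 and did not pass, although another probe set of each was called higher, by 0.79 for NSD1 and 0.37 for SETD2.

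On histone H4 lysine K20, KMT5A, the monomethylase of dividing cells, read 253, 275 and 320 in CL1-5, against 425, 400 and 480 in CL1-0. The lines were apart (log2 fold change -0.61, SE 0.11, adjusted p = 0.00186). KMT5C, which adds the later methyl groups, fell by 0.34 with an adjusted p of 0.0478, and leaving out any array but CL1-0 repeat 3 ended that call (0.0503 to 0.143). KMT5B, its paralog, was not called on the probe set that stands for it (0.20), while another of its probe sets read 218, 243 and 241 in CL1-5, against 415, 431 and 411 in CL1-0, and was lower by 0.82.

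All 5 other SET-domain proteins were called, 1 higher and 4 lower, where 51.6% of all genes were called, but the calls of SETD3 and SETD4 depended on single arrays and on the probe set. SETD9, whose substrates are poorly known, read 81.1, 92.8 and 102 in CL1-5, against 234, 195 and 226 in CL1-0 (log2 fold change -1.19, SE 0.12, adjusted p = 3.49e-05). SETD5, mutated in a form of intellectual disability, read 859, 811 and 1039 in CL1-5, against 1947, 2022 and 1922 in CL1-0 (log2 fold change -1.12, SE 0.10, adjusted p = 1.76e-05). In both genes the lines were clear of each other, and all 4 passing probe sets of SETD5 were lower. SETD6, which methylates the NF-kB subunit RELA, went the other way, with 213, 225 and 229 in CL1-5 and 117, 116 and 115 in CL1-0 (log2 fold change 0.90, SE 0.09, adjusted p = 3.15e-05).

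SETD3, the histidine methyltransferase of actin, read 378, 400 and 498 in CL1-5, against 527, 545 and 558 in CL1-0. The lines did not overlap on this probe set (log2 fold change -0.36, adjusted p = 0.0247). A second SETD3 probe set was called higher, with 46.5, 45.9 and 53.2 in CL1-5 and 32.6, 33.1 and 28.1 in CL1-0 (0.54). The mean of the 2 was 0.09 with an adjusted p of 0.467, and leaving out CL1-5 repeat 1 or 2 or CL1-0 repeat 2 or 3 ended the call (0.0501 to 0.0959). SETD4 (-0.36) lost its call without the same 4 arrays (0.058 to 0.0735) and with the mean of its probe sets (-0.12, adjusted p = 0.247), and its brightest probe set, of a cross-hybridising kind, gave 0.03 (adjusted p = 0.881).

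Of 8 arginine methyltransferases 1 was higher, 2 were lower and 5 did not pass. PRMT9, which methylates a splicing factor, read 150, 143 and 139 in CL1-5, against 271, 259 and 241 in CL1-0. No array of either line crossed over (log2 fold change -0.80, SE 0.09, adjusted p = 9.33e-05). PRMT3, which methylates a ribosomal protein, averaged 341 ± 31 in CL1-5 and 477 ± 29 in CL1-0 (log2 fold change -0.48). PRMT2, a coactivator of nuclear receptors, read 526, 522 and 529 in CL1-5, against 403, 397 and 376 in CL1-0 (log2 fold change 0.42, adjusted p = 0.00182), and another of its probe sets was higher by 0.89. PRMT1, the main asymmetric enzyme, read 3477, 3331 and 2099 in CL1-5, against 4200, 3905 and 2232 in CL1-0, where repeat 3 was the lowest of each line and the groups overlapped. Within each repeat number CL1-5 was the lower, and PRMT1 passed in the fit blocked by repeat number (adjusted p = 0.00327). PRMT5, the main symmetric enzyme, and PRMT6, PRMT7 and PRMT8 had log2 fold changes between -0.16 and 0.32.

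Probe sets showed how far the gene values depend on the probe set chosen. In a fit over all 33832 passing probe sets, 20 of the 183 member probe sets were higher, 54 lower and 109 not called, where 44.3% of all were called, 19.7% higher and 24.6% lower. The number higher was 12 without CL1-0 repeat 2 and 38 with the repeat number as a block. HDAC7, KDM3A and KMT5C, called in the fit over genes, were not called in this one. Of 49 genes with 2 or more passing probe sets, HDAC6 and SETD3 had called probe sets in opposite directions. The higher one of HDAC6 passed the filter only through the CL1-5 arrays. Probe sets with no call lay beside called ones in several genes, among them HDAC9, KMT2D, KDM7A, HDAC2, KDM5B, KMT2C, HDAC5, KAT6A and KMT5A. For HDAC9, KMT2D, KDM7A and HDAC2 the mean over the probe sets of each gene gave smaller log2 fold changes of -1.17, -0.93, -0.51 and -0.58. Means were also smaller for KDM5B (-0.71), KMT2C (-0.61), HDAC5 (-0.32), KAT6A (-0.81) and SETD5 (-0.90) and larger for KDM6B (-1.20). All genes named here with a mean kept their call. In KDM5A (2 probe sets) and SIRT6 (1 cross-hybridising probe set) some were called lower where the gene was not. Probe sets of 1 gene share their target and are not replicates.

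**Figure D4:**
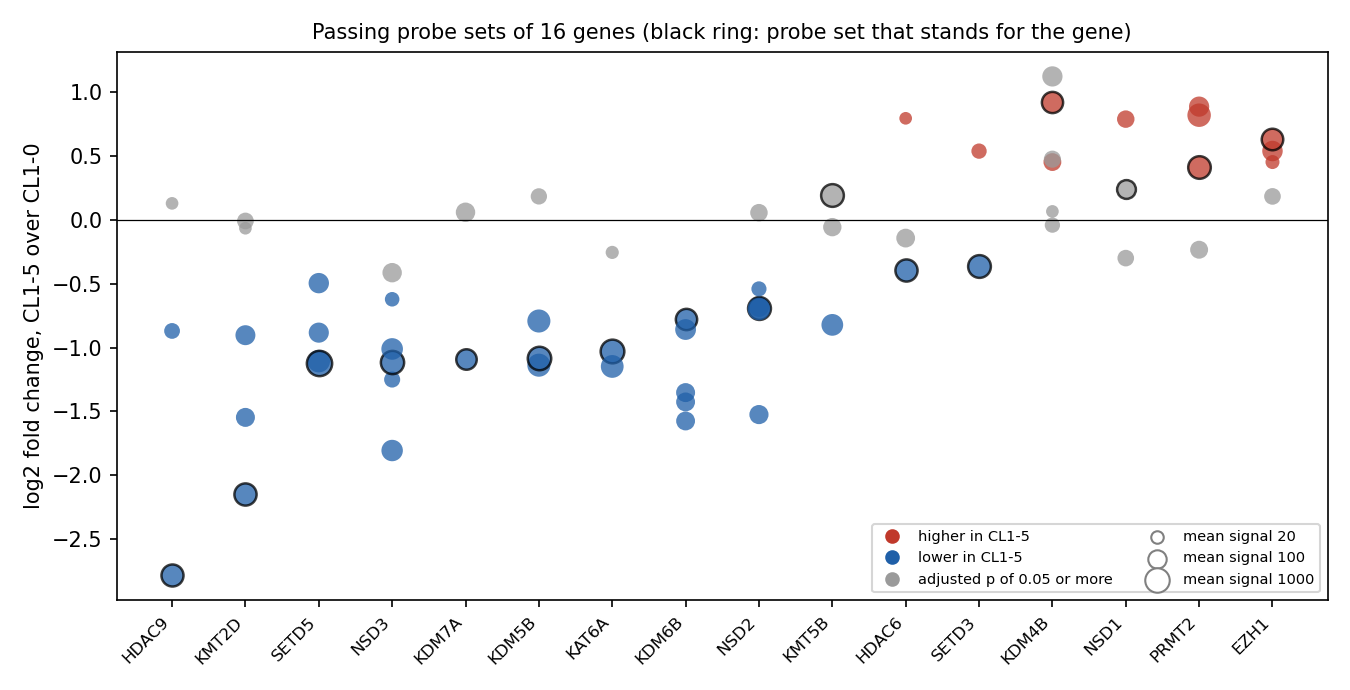
Log2 fold change of CL1-5 over CL1-0 (y axis) for every passing probe set of 16 member genes. Point area grows with the mean signal, a black ring marks the probe set that stands for the gene, and red, blue and grey are higher, lower and not called. All 5 points of KDM6B are blue, and HDAC6 and SETD3 have points of both colours.

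Repeat 3 was the highest array of its line in both lines for 30 of the 74 members (40.5%), against 24% of all genes, and the lowest in both for 14 (18.9%), against 25.8%. KMT2D, NSD3, KAT6A, KMT2C and KDM6B were among the called genes with repeat 3 on top. The part of the higher ACTB ratio of repeat 3 in these levels was not tested.

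Along the chromosomes, 4 of the 5 members on chromosome 7 were lower (HDAC9, EZH2, KDM7A and KMT2C) and KMT2E did not pass. Of all 689 genes tested there, 40.3% were lower and 16.1% higher. For 6 members the 10 tested genes on each side had a median log2 fold change under -0.4, and all 6 were lower. How often genes outside the members have such neighbours, or are lower where they do, was not counted. The medians were -0.69 around HDAC9, with 14 of 20 neighbours lower, -0.68 around SUV39H2, -0.54 around NSD2, -0.53 around NSD3 and -0.47 around both KAT6A and SETD9. The other lower members had neighbour medians between -0.25 (KAT2B) and 0.18 (KMT5A), with 0.02, 0.07 and 0.01 around EZH2, HDAC2 and KDM5B. Copy number was not measured, and its part in these levels was not tested.

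Partners of these enzymes were counted from lists of complex subunits, and the counts stand beside 23.3% of all genes called higher and 28.3% lower. The share called was 90.9% of the PRC2 partners, 58.3% of the COMPASS partners, 54.5% of the corepressor subunits, 40% of the acetyltransferase partners, 58.3% of the other enzymes and 20% of the bromodomain proteins, against 51.6% of all genes. Of 11 PRC2 partners 6 were higher, 4 lower and 1 not called. JARID2, which helps recruit PRC2, averaged 737 ± 96 in CL1-5 and 220 ± 40 in CL1-0 (log2 fold change 1.72, SE 0.15), and AEBP2, an accessory subunit of the alternative PRC2 form, averaged 278 ± 22 in CL1-5 and 628 ± 125 in CL1-0 (-1.14). The core subunits EED and SUZ12 differed in direction, with 0.55 and -0.51. Of 12 partners in the COMPASS complexes of K4 methylation 2 were higher and 5 lower, among them PAXIP1 (-0.81), and the partner of KMT2C and KMT2D named PAGR1 was higher by 0.55.

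Of 22 tested subunits of HDAC corepressor complexes 2 were higher and 10 lower. TBL1X, a subunit of the HDAC3 complex, averaged 375 ± 58 in CL1-5 and 837 ± 7.45 in CL1-0 (log2 fold change -1.16). All 3 CoREST scaffolds, the partners of KDM1A, were lower, with -0.56 for RCOR1, -0.94 for RCOR2 and -0.75 for RCOR3. Of 25 acetyltransferase partners 2 were higher and 8 lower. JADE2, a scaffold of the HBO1 complex, averaged 974 ± 4.5 in CL1-5 and 289 ± 10.5 in CL1-0 (1.73, and 0.92 with the mean of its probe sets), and ING3, a subunit of the TIP60 complex, 287 ± 69 in CL1-5 and 601 ± 128 in CL1-0 (-1.05). In the blocked fit the lower acetyltransferase partners were 15 and the higher 4, and the lower COMPASS partners were 8, and 3 without CL1-0 repeat 2.

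Of 24 other histone-modifying enzymes 3 were higher and 11 lower, and with the block the higher ones were 6. CLOCK, a circadian transcription factor reported to acetylate histones, averaged 161 ± 20 in CL1-5 and 455 ± 11.5 in CL1-0 (log2 fold change -1.47). CREBBP fell by 0.57, while its paralog EP300 had 0.03 and did not pass. Of 5 bromodomain proteins, which bind acetylated histones, BRD9 was higher by 0.51 and 4 did not pass. Median log2 fold changes were 0.42 for the PRC2 partners, -0.23 for the COMPASS partners, -0.26 for the corepressor subunits, -0.24 for the acetyltransferase partners, -0.26 for the other enzymes and 0.03 for the bromodomain proteins, against -0.03 for all genes tested. Some listed genes were not analysed here, and BRDT did not exceed the percentile on any array.

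**Figure D5:**
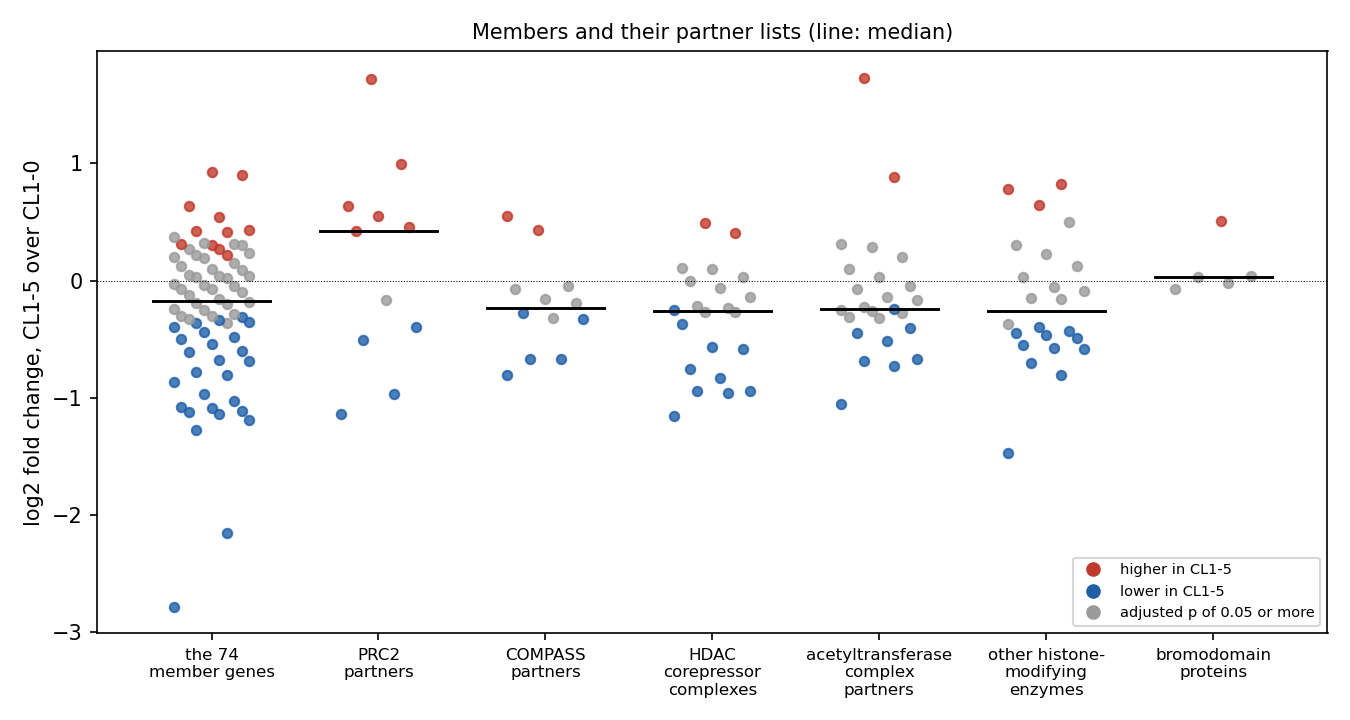
Log2 fold change of CL1-5 over CL1-0 (y axis) of the 74 member genes and of the genes in 6 lists of partners and related enzymes, 1 point a gene. Red, blue and grey points are higher, lower and not called, and black lines are medians. The PRC2 partners have a median of 0.42 and the members one of -0.17.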

How the data were processed

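The authors deposited 1 linear intensity value per probe set and array, made with MAS5 per the submitters' processing notes. Version, scaling and further steps were not given in the sources used here. Titles gave each sample's line and repeat number. P-values measure the spread between these repeats. Gene names came from the platform's annotation, replaced by the current RefSeq symbol where the gene identifier was found there. Members were chosen by the platform's symbol. A constant of 6.85 (10th percentile over the whole table) was added to each value before log2 was taken. Passing meant lying above an array's 40th percentile in 3 or more of the 6 arrays. The brightest passing probe set stood for its gene, and a cross-hybridising one (suffix x) did so only where no other passed. Line effects of 14828 genes were estimated by lmFit and eBayes (trended prior variance) of limma 3.58.1, run in R 4.3.3, with Benjamini-Hochberg adjustment over all of them. Fold changes on this scale understate changes of dim genes, and the number of arrays limits precision. Standard errors of log2 fold changes had a median of 0.11. After the line means were subtracted, arrays of the 2 lines with the same number correlated by 0.475 (repeat 1), 0.280 (repeat 2) and 0.649 (repeat 3), so the repeat numbers were taken to pair the arrays, which the labels do not state. The members, the lists and the promoters shown were chosen with earlier results of these data known. Values in every array are given for members called at 2-fold or more, for the called member with the largest change of each role group and for genes with probe sets called in opposite directions, and some other genes were added after their values were seen. The fit was tested on simulated data in which arrays varied independently, so without the deviations that arrays of 1 repeat number share. Alternatives were the constant, the filter, scaling, the variance trend, array weights, blocks, left-out arrays, the threshold and the choice of probe set.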

Additional observations from a re-analysis of the deposited data

How the results depend on the processing

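Of the 38 called members, 27 kept their call in all 26 alternatives with a test, 11 lost it in at least 1, and of these 3 also reversed in sign under another choice of probe set: HDAC6 to 0.0877 and SETD3 to 0.0908 with the mean of all passing probe sets, and SETD4 to 0.0289 with cross-hybridising probe sets included. Left-out arrays ended calls of 6 higher and 4 lower members, which left 5 of 11 higher and 23 of 27 lower members with a call under every left-out array.

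Counts of member genes lower stayed within 1.5 times throughout, and leaving out 1 array gave 23 to 28. Member genes higher numbered 18 with array weights, 20 with the replicate block, 20 with repeat 3 apart as a block and 5 at an adjusted p under 0.01. Leaving out 1 array gave 5 to 12, with 6 (5 with the filter on 2 arrays) without CL1-0 repeat 2 and 7 without CL1-5 repeat 3. Member probe sets higher numbered 38 under the weights and under both blocks and 11 at 0.01, and 12 to 21 with 1 array left out (12 to 22 with the filter on 2 arrays), the 12 without CL1-0 repeat 2. Lower COMPASS partners numbered 8 under the weights and both blocks, 3 at 0.01 and 3 to 6 with 1 array left out, the 3 without CL1-0 repeat 2. Acetyltransferase partners higher numbered 6 with weights and 4 with either block, and lower 15 with weights, 15 with the replicate block and 14 with repeat 3 apart. Other enzymes higher numbered 6 with weights, 6 with the replicate block, 5 with repeat 3 apart and 5 in repeats 1 and 2 alone. Over all genes the weights called 69.4% and the replicate block 62.7%, against 51.6%. The cause of these shifts was not tested. Of 412 recomputed counts, 382 were within 1.5 times. Signals near the 40th percentile, such as those of SIRT4, limit what the arrays can show.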
